A study of Mus musculus with 2 samples.

Results

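The short interspersed elements (SINEs) of the mouse genome were read from the rows of the count matrix that held repeat sequences instead of genes. A row was counted as a SINE where its name did not begin as a gene identifier does and carried the SINE class of the repeat library. This gave 50 SINE rows of the 51868 rows in all, and of the 1182 repeat rows. The cells were testis cells of 2 wild-type male mice of the strain C57Bl/6J Crl, 8 weeks of age, which were littermates and carried no transgene, allele or treatment. The testes were dissociated and 3-prime single-cell libraries with unique molecular identifiers (UMIs) were prepared with the 10x Genomics system, 1 library per mouse. The matrix held 1237 cells of mouse 1 and 1315 cells of mouse 2, with a median of 17871 and 19184 UMIs per cell, and no barcode was shared by both libraries. Only 1 condition was studied, so the comparisons below are between classes of cells along spermatogenesis, with the 2 mice as replicates.

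SINEs are short retrotransposons that make no protein of their own and depend on the enzymes of LINE-1 elements to be copied. Mouse B1 elements derive from 7SL RNA, the RNA of the signal recognition particle, whereas B2 elements and BC1 derive from transfer RNAs. All of these are transcribed by RNA polymerase III from a promoter inside the element, and B1 and B2 copies also lie within many messenger RNAs. BC1 is a single gene whose RNA is best known from neurons, where it takes part in the control of translation near synapses, and it has also been found in male germ cells. The libraries were primed at poly-A stretches and the reads were counted on consensus sequences, so that free SINE transcripts and SINE copies carried within a longer RNA cannot be told apart in these counts.

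The sequence of the RNA behind the leading row is shown because the libraries select for runs of A. The longest run of A is in capitals, and it was read 5′ to 3′ from the GENCODE M21 transcripts of the GRCm38 build. Bc1, annotated as a lincRNA, lies on the plus strand at chr7:144914470-144914637 and is 168 bases long. It is the mouse gene of the RNA that the row BC1_Mm represents, and it holds an internal run of 23 A at positions 77 to 99, counted from its 5′ end. The count matrix held no row named Bc1, and the next gene annotated after the end of Bc1, LTO1, starts 463 bases away.
Bc1: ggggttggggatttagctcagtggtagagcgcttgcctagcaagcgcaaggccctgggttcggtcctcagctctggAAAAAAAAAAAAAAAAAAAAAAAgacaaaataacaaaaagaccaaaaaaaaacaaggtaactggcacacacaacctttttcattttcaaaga
Of all bases of Bc1, 41.7% are A.

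The SINE rows received 98447 UMIs, which was 0.170% of the 57752829 UMIs of the series. Almost all of them lay on the youngest families. The B2 rows held 39.7% of the SINE UMIs, BC1 held 34.9% and the B1 rows 25.2%. A total of 21 rows had at least 1 UMI and 29 had none, and 11 rows with at least 100 UMIs carried 99.9% of the SINE UMIs. The leading rows were BC1_Mm with 34402 UMIs, B2_Mm2 with 17613, B1_Mus1 with 11362, B2_Mm1a with 10584, B1_Mm with 5932, B2_Mm1t with 5720, B2 with 5187, B1_Mus2 with 3808 and B1 with 2858. B1_Mur4 and B1_Mur3 followed with 568 and 284 UMIs. The other 10 rows with a UMI held 129 UMIs together.

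The name of each row also carries the clade in which the repeat is found, which had no part in choosing the rows. Of the 11 rows assigned to Mus, 9 had UMIs, and they held 99.0% of the SINE UMIs. The 8 rows assigned to Muridae held 879 UMIs and the 16 rows assigned to Rodentia 102. None of the 15 rows assigned to wider clades, among them MIR, MIRb and MIR3, was detected. A count of 0 over all cells allows a level of up to 0.0519 CPM, the UMIs of a row per 1e6 UMIs of the cells, from 3 counts and for counting error only. Copies that have diverged from the consensus may fail to align to it, and masking removes them from the genome, so that old families can be missed by this way of counting.

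To follow the SINE rows along spermatogenesis, the cells were grouped by K-means into 9 clusters from the genes alone, with every repeat row left out. Clusters were named from marker genes. They comprised spermatogonium-like cells (7 cells), early spermatocyte-like cells (163), pachytene or later spermatocyte-like cells (527), round spermatid-like cells (449), elongating or condensing spermatid-like cells in a larger cluster of 505 and a smaller cluster of 200, Sertoli-like cells (7) and Leydig-like cells (5). A cluster of 689 cells led by Ssxb3, Ssxb1 and Ssxb2 met the marker limits of no class and was left unnamed. In the summed level of its pachytene and its round spermatid markers it lay between the classes of those names, and it is listed there. The 25 cells called as doublets by scrublet were kept in the values below.

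The part of the transcriptome that lay on SINE rows was highest in spermatogonia and lower in each later class of germ cells. In spermatogonium-like cells, 6.60% of the UMIs of mouse 1 and 5.35% of those of mouse 2 were on SINE rows. The share was 0.598% and 0.515% in early spermatocytes, 0.263% and 0.238% in pachytene or later spermatocytes, 0.118% and 0.107% in the unnamed cluster, and 0.0847% and 0.0847% in round spermatids. It was 0.0595% and 0.0585% in the smaller cluster of elongating or condensing spermatids and 0.0208% and 0.0165% in the larger one. The values of the 2 mice did not overlap between any neighbouring pair of these groups. The Leydig-like cells, with 1.36% and 0.965%, lay between spermatogonium-like cells and early spermatocytes. Sertoli-like cells had 0.697% and 0.597% and overlapped early spermatocytes. These shares are summed levels and were not tested.

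**Figure D1:**
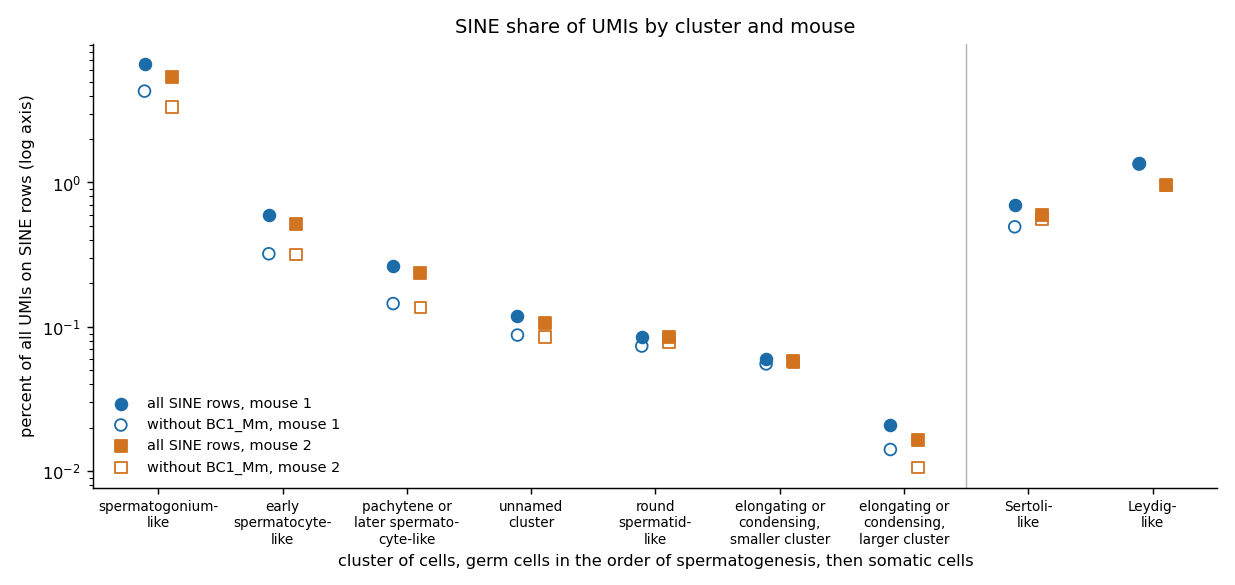
Percent of all UMIs on SINE rows (log axis) for each cluster of cells, with germ cells in the order of spermatogenesis and somatic cells to the right of the line. Filled points are all SINE rows and open points all rows but BC1_Mm, circles are mouse 1 and squares mouse 2. The filled points run from 6.60% and 5.35% in spermatogonium-like cells to 0.0208% and 0.0165% in the larger cluster of elongating or condensing spermatids.

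The fall was also seen in UMIs per cell, and it did not rest on BC1 alone. SINE rows gave 677 and 588 UMIs per cell in spermatogonium-like cells, 124 and 112 in early spermatocytes, 89.2 and 80.9 in pachytene or later spermatocytes, 19.3 and 19.8 in round spermatids, and 2.62 and 2.25 in the larger cluster of elongating or condensing spermatids. Without BC1_Mm, the share was 4.29% and 3.32% in spermatogonium-like cells, 0.321% and 0.318% in early spermatocytes and 0.0737% and 0.0788% in round spermatids. The share of mitochondrial UMIs moved with the SINE share over most germ cell classes. It was 1.42% and 1.46% in spermatogonium-like cells, 0.740% and 0.758% in early spermatocytes, 0.255% and 0.228% in pachytene or later spermatocytes and 0.0385% and 0.0347% in round spermatids. Its part in the result was not tested. The row of poly-A sequence had 6398 and 6188 CPM in spermatogonium-like cells, 4442 and 4630 CPM in early spermatocytes and 7074 and 8377 CPM in round spermatids.

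Every one of the 7 spermatogonium-like cells had a larger part of its UMIs on SINE rows than any cell of another class. They held between 2.63% and 10.7%, with a median of 5.71%. The range over single cells was 0.068% to 2.01% in early spermatocytes and 0.009% to 1.44% in pachytene or later spermatocytes. The cell with the highest share was from mouse 1 and held 375 UMIs of BC1_Mm, 223 of B2_Mm1a, 181 of B2_Mm2, 178 of B2_Mm1t and 166 of B1_Mus1 in 11175 UMIs. It was also the cell of this class with the most UMIs of Stra8, a gene that retinoic acid induces before meiosis, with 27 against 0 to 2 in the other 6. It had the fewest UMIs of the spermatogonial gene Rhox13, with 1. The cell with the next highest share, 8.03% in mouse 2, had 0 UMIs of Stra8 and the most of Rhox13, with 10. A link of either gene to the SINE share was not tested. Spermatogonium-like cells were not the most deeply sequenced, with a median of 10239 and 10466 UMIs per cell against 16823 and 20098 in early spermatocytes. With 3 cells of mouse 1 and 4 of mouse 2, values for this class describe these cells.

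BC1_Mm was the SINE row with the most UMIs, and its level was lower in each step from spermatogonia to round spermatids. Its level was 23060 CPM in mouse 1 and 20317 CPM in mouse 2 in spermatogonium-like cells, and 2773 and 1976 CPM in early spermatocytes. It was 1181 and 1017 CPM in pachytene or later spermatocytes, 302 and 214 CPM in the unnamed cluster and 110 and 58.4 CPM in round spermatids. The mean was 21689 ± 1940 CPM (SD, n = 2) in spermatogonium-like cells, 2375 ± 564 in early spermatocytes, 1099 ± 116 in pachytene or later spermatocytes and 84.3 ± 36.6 in round spermatids. The classes up to this point did not overlap between mice. The smaller cluster of elongating or condensing spermatids had 40.2 and 16.1 CPM and the larger one 66.2 and 58.8 CPM, and the larger one was within the range of the round spermatids.

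**Figure D2:**
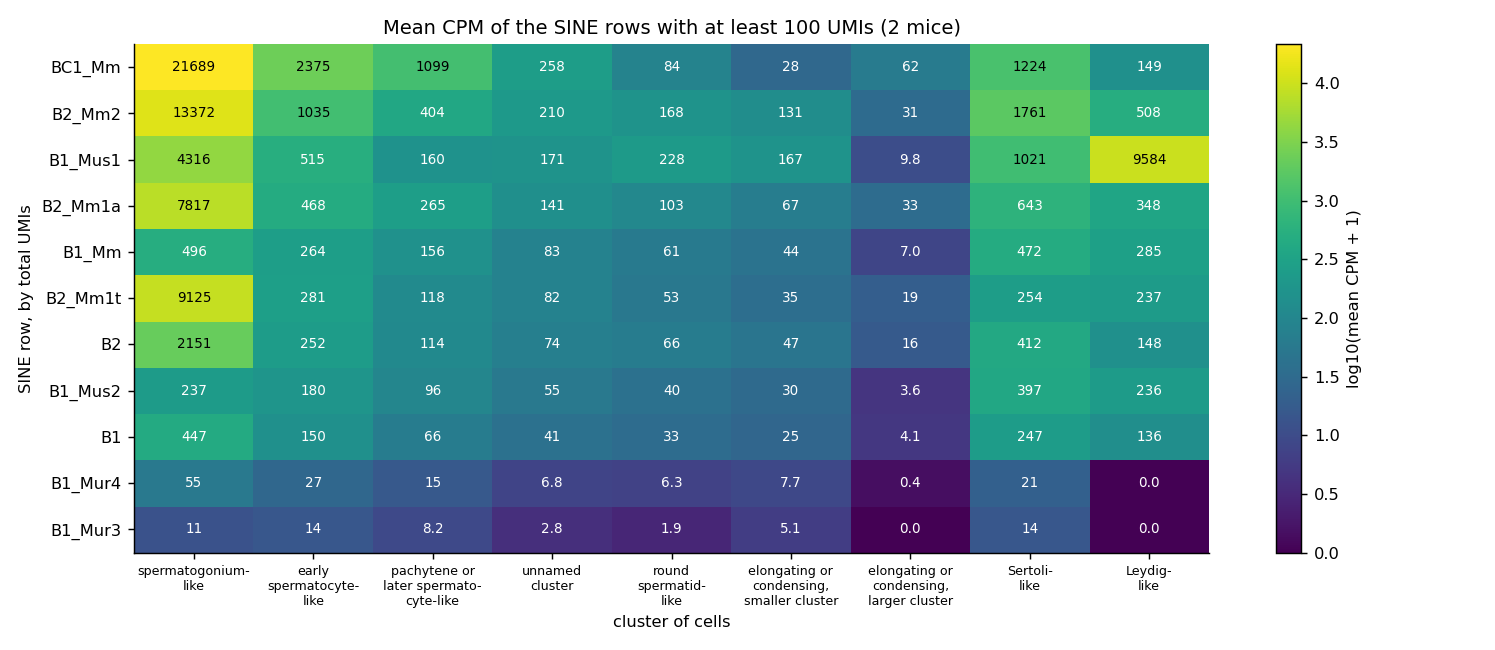
Mean CPM over the 2 mice of the 11 SINE rows with at least 100 UMIs (rows, by total UMIs) in each cluster of cells (columns), coloured by log10(mean CPM + 1). Spermatogonium-like cells hold the highest mean of BC1_Mm (21689 CPM) and of the 4 B2 rows, while B1_Mus1 is highest in Leydig-like cells (9584 CPM).

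Spermatogonia were compared with early spermatocytes for BC1_Mm only, since the cells were few. BC1_Mm was higher in spermatogonium-like cells, with a log2 fold change of 2.12 (SE 0.24, adjusted p = 5.4e-08, edgeR quasi-likelihood test on UMIs summed per mouse and class, Benjamini-Hochberg over 15269 rows). In that fit 4.16% of all rows were called higher. The median of all rows was -1.71 on the same scale. The log2 ratio of the CPM itself was 3.06 in mouse 1 and 3.36 in mouse 2. The p-value rests on a spread shared by all classes in the fit. It does not measure the spread between the spermatogonium-like cells, whose BC1_Mm ran from 6400 to 33557 CPM.

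Successive named classes with enough cells were then compared for all rows in 1 edgeR fit. In it, 12 SINE rows and 14993 rows in all passed the filter on low counts. The unnamed cluster entered the fit but no comparison, so the step from pachytene or later spermatocytes to round spermatids spans it. From early to pachytene or later spermatocytes, BC1, the 4 B2 rows and 4 of the 6 tested B1 rows with at least 100 UMIs fell. None rose. A total of 10 of the 12 SINE rows were called (adjusted p under 0.05), where 48.3% of all rows tested were called in either direction. All 10 were lower, where 23.2% of all rows were, and 0 were higher, where 25.1% of all rows were. The median change of the 12 rows was -0.83 on the log2 scale and that of all rows 0.02. These classes had been formed without the SINE rows, so the rows did not choose the cells they were tested in. Genes that formed the classes can have levels like those of the SINE rows, so the tests are not fully independent of the classes.

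The largest fall from early to pachytene or later spermatocytes among rows with at least 100 UMIs was that of B1_Mus1. It had 494 and 536 CPM in early spermatocytes and 167 and 153 CPM in pachytene or later spermatocytes, a log2 fold change of -1.40 (SE 0.19, adjusted p = 3.0e-06). B2_Mm2 went from 1063 and 1008 CPM to 406 and 401 CPM, a change of -1.06 (SE 0.13, adjusted p = 1.3e-06). The values of the 2 mice were far apart between the classes and close within them. B2_Mm1t changed by -0.92 (SE 0.21, adjusted p = 0.0011), B1 by -0.89 (SE 0.16, adjusted p = 9.0e-05) and B2 by -0.86 (SE 0.14, adjusted p = 2.4e-05). BC1_Mm changed by -0.80 (SE 0.23, adjusted p = 0.0057). The fall of BC1_Mm did not pass the threshold with early spermatocytes of mouse 1 left out (-0.61, adjusted p = 0.096), with pachytene or later spermatocytes of mouse 2 left out (-0.62, adjusted p = 0.063) or as UMIs per cell (-0.43, adjusted p = 0.11). B1_Mur4 and B1_Mur3 had log2 fold changes of -0.56 (SE 0.24, adjusted p = 0.055) and -0.56 (SE 0.31, adjusted p = 0.15). With the mouse as a block, B1_Mur4 passed (-0.54, adjusted p = 0.025) and BC1_Mm stayed called (-0.80, adjusted p = 8.4e-11). The 10th row called was B3, which has 27 UMIs in all and lost its call with the mouse as a block.

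Pachytene or later spermatocytes gave more UMIs per cell than early spermatocytes, with medians of 19812 and 22017 against 16823 and 20098. Counted as UMIs per cell, the median change of all rows was 0.40 on the log2 scale and 5 of the 12 SINE rows were called, all of them lower, where 14.6% of all rows were called lower. Leaving out early spermatocytes of mouse 2, or pachytene or later spermatocytes of mouse 2, left 6 rows called, all lower. B1, B1_Mus1, B2, B2_Mm1t and B2_Mm2 were called as UMIs per cell and with each of the 4 sums left out in turn. B1_Mm lost its call as UMIs per cell (-0.10, adjusted p = 0.72) and with 3 of the 4 sums left out. Without early spermatocytes of mouse 2 its change was -0.12. B1_Mus2 lost its call as UMIs per cell (-0.25, adjusted p = 0.33) and without early spermatocytes of mouse 2 (-0.25). B2_Mm1a lost its call as UMIs per cell (-0.14, adjusted p = 0.55) and with 3 of the 4 sums left out.

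**Figure D3:**
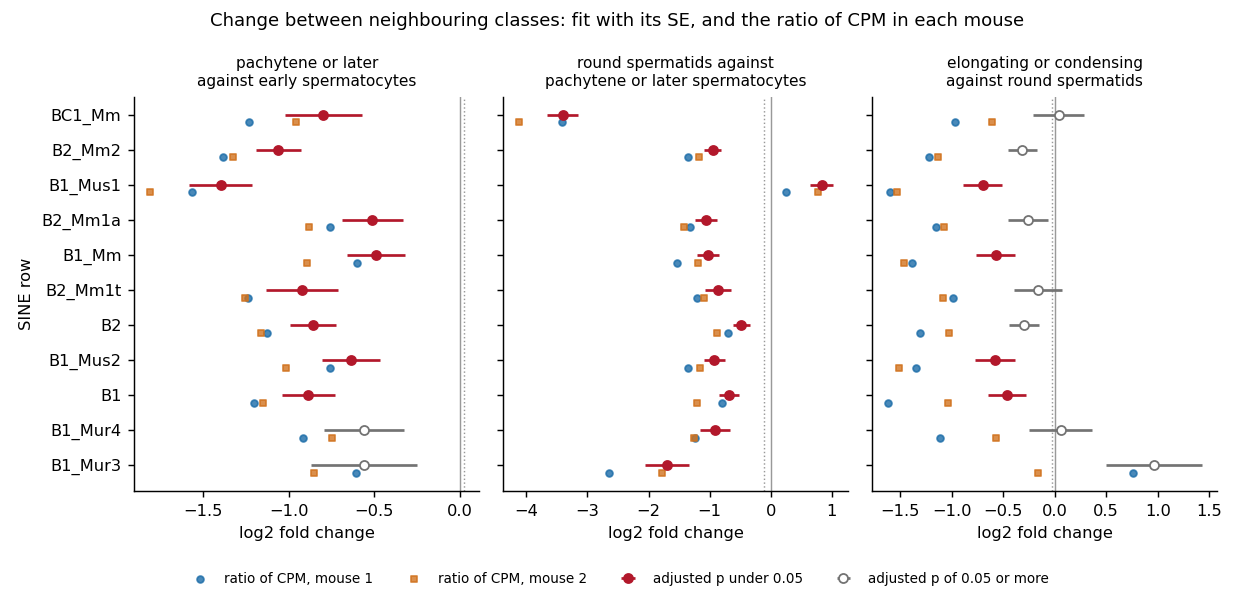
Log2 fold change of the 11 SINE rows between successive named classes, with the unnamed cluster passed over. Large points are the edgeR fit with its SE, filled where the adjusted p was under 0.05. Small points are the log2 ratio of CPM in each mouse (circles for mouse 1, squares for mouse 2). The dotted line is the median of all rows, and each panel has its own axis. BC1_Mm has the largest fall, -3.40 from pachytene or later spermatocytes to round spermatids, and B1_Mus1 is on the other side of 0 from the other 10 in that panel (0.83, but -0.04 as UMIs per cell).

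From pachytene or later spermatocytes to round spermatids, BC1 fell by the largest amount of any SINE row tested, while the B1 rows moved in both directions. BC1_Mm went from 1181 and 1017 CPM to 110 and 58.4 CPM, a log2 fold change of -3.40 (SE 0.25, adjusted p = 1.2e-10). It fell from 40.0 and 34.6 UMIs per cell to 2.51 and 1.37. Each of the alternatives tried left it called lower, with values from -4.28 to -2.38. In total, 11 of the 12 SINE rows were called, where 74.4% of all rows tested were called in either direction. The lower ones were 10, where 37.5% of all rows were lower, and 1 was higher, where 37% of all rows were. The median of the 12 rows was -0.92 and that of all rows -0.11.

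The row that rose was B1_Mus1, against the direction of the other B1 rows. It had 167 and 153 CPM in pachytene or later spermatocytes and 197 and 260 CPM in round spermatids, a log2 fold change of 0.83 (SE 0.18, adjusted p = 3.9e-04), but as UMIs per cell, where the median of all rows was -0.98, its change was -0.04. The log2 ratio of its CPM was 0.24 in mouse 1 and 0.77 in mouse 2. The close relatives B1_Mm, B1_Mus2 and B1 changed by -1.03 (SE 0.17), -0.93 (SE 0.17) and -0.69 (SE 0.16), with adjusted p of 2.2e-05, 6.0e-05 and 7.0e-04. B1_Mur3, with 284 UMIs, changed by -1.70 (SE 0.36, adjusted p = 2.7e-04). Of the B2 rows, B2_Mm1a changed by -1.06 (SE 0.18, adjusted p = 2.8e-05), B2_Mm2 by -0.95 (SE 0.13, adjusted p = 2.1e-06) and B2_Mm1t by -0.86 (SE 0.22, adjusted p = 0.0012). B2 had the smallest fall, -0.48 (SE 0.14, adjusted p = 0.0035). The B1 rows are close in sequence, and how reads that match several of them were assigned is not given in the sources used here, so the values of single B1 rows are uncertain to that degree.

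Within the B1 family, the part held by B1_Mus1 therefore moved along spermatogenesis. In spermatogonium-like cells it was 84.2% and 66.1%, from 215 and 183 B1 UMIs, but these values rested largely on 1 cell in each mouse. That cell held 166 of the 181 UMIs of B1_Mus1 in mouse 1 and 84 of the 121 in mouse 2. In early spermatocytes the part was 46.2% in mouse 1 (exact 95% binomial interval 43.3 to 49.1, counting error only). It was 43.5% in mouse 2 (41.7 to 45.3). In pachytene or later spermatocytes it was 33.5% (32.2 to 34.8) and 30.1% (28.7 to 31.6). In the unnamed cluster it was 43.9% (41.7 to 46.2) and 50.4% (48.7 to 52.1), and in round spermatids 59.7% (57.1 to 62.3) and 62.8% (60.9 to 64.7). It was 59.4% and 60.4% in the smaller cluster of elongating or condensing spermatids. The highest part was in Leydig-like cells, at 94.2% and 92.8%. The pachytene class thus had the lowest part of the well-filled classes in both mice. The larger cluster of elongating or condensing spermatids had 34.5% and 44.2%, from 87 and 77 B1 UMIs, with intervals of 24.6 to 45.4 and 32.8 to 55.9.

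**Figure D4:**
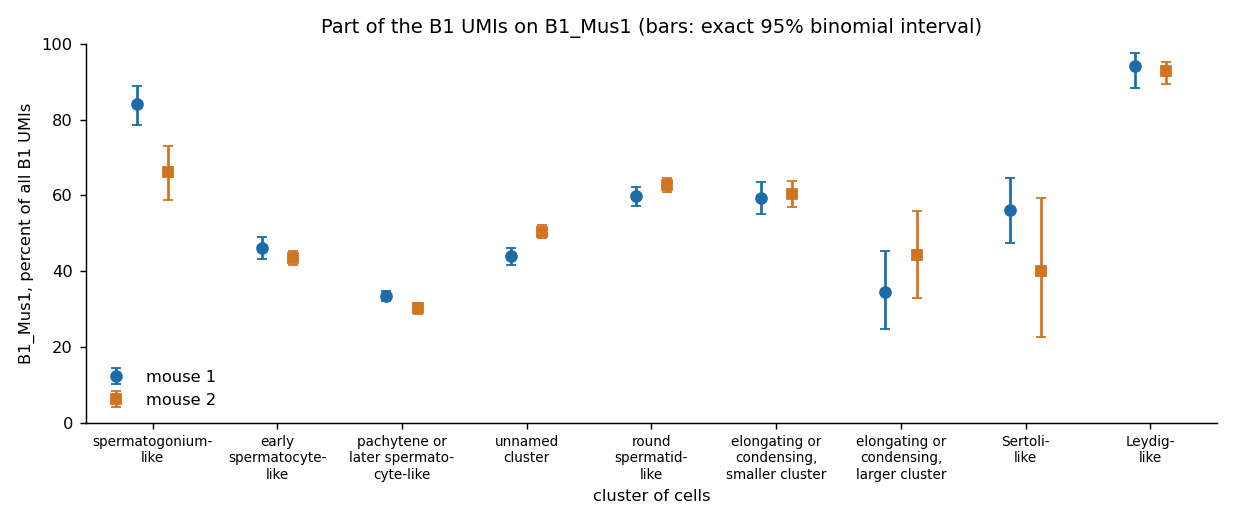
Percent of all B1 UMIs that lay on B1_Mus1 in each cluster of cells, circles for mouse 1 and squares for mouse 2, with exact 95% binomial intervals (counting error only). The part falls from 46.2% and 43.5% in early spermatocytes to 33.5% and 30.1% in pachytene or later spermatocytes and is 59.7% and 62.8% in round spermatids, and it is above 90% in both mice in Leydig-like cells only.

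From round to elongating or condensing spermatids, the CPM of the 9 leading rows was lower in both mice. The share of all rows lower in CPM in both mice was not counted, so this is not shown to be particular to SINE rows. Levels of protamine and transition protein messages, whose proteins package the sperm chromatin, were much higher in elongating or condensing spermatids. The summed level of the elongating or condensing marker genes was 156576 and 124432 CPM in this class and 11825 and 9926 CPM in round spermatids. The fit rescaled these libraries by factors of 0.527 and 0.528, against 0.959 and 0.957 for round spermatids. On its scale 4 of the 12 SINE rows were called, where 53.2% of all rows tested were called in either direction. All 4 were lower, where 26.1% of all rows were, and 0 were higher, where 27% of all rows were. The calls in either direction were thus below the background, and the lower ones were near it. The 4 were all B1 rows. B1_Mus1 had 65.0 and 89.9 CPM against 197 and 260 CPM in round spermatids, a log2 fold change of -0.70 (SE 0.19, adjusted p = 0.0035). B1_Mus2 changed by -0.58 (SE 0.20, adjusted p = 0.016), B1_Mm by -0.58 (SE 0.19, adjusted p = 0.016) and B1 by -0.47 (SE 0.19, adjusted p = 0.040).

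BC1_Mm and the B2 rows did not pass the threshold in this step. BC1_Mm had 56.5 and 38.2 CPM in elongating or condensing spermatids, a log2 fold change of 0.04 (SE 0.25, adjusted p = 0.92), which was -1.33 as UMIs per cell. B2_Mm2 had 67.9 and 80.8 CPM, a change of -0.31 (SE 0.14, adjusted p = 0.063), which passed with the mouse as a block (adjusted p = 0.025). The changes were -0.30 (SE 0.15, adjusted p = 0.093) for B2, -0.26 (SE 0.19, adjusted p = 0.28) for B2_Mm1a and -0.16 (SE 0.23, adjusted p = 0.59) for B2_Mm1t. B1_Mur3 and B1_Mur4 had 0.96 (SE 0.46, adjusted p = 0.088) and 0.06 (SE 0.31, adjusted p = 0.90). As UMIs per cell, where the median of all rows was -1.36, 10 of the 12 SINE rows were called, all lower, where 62.1% of all rows were called lower. A specific loss of SINE RNA and a lower RNA content per cell cannot be told apart in this step. Without round spermatids of mouse 2, 2 rows were called, 1 in each direction, and with DESeq2 1 row was called lower.

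The 2 clusters that make up this class differed. The smaller cluster had 160 and 175 CPM of B1_Mus1 and the larger one 8.52 and 11.0 CPM. The smaller cluster had 122 and 139 CPM of B2_Mm2 and the larger one 35.8 and 26.6 CPM. BC1 went the other way, with 40.2 and 16.1 CPM in the smaller and 66.2 and 58.8 CPM in the larger cluster. Against round spermatids, 9 SINE rows were called with the larger cluster alone (8 lower, and BC1_Mm higher at 0.70, adjusted p = 0.015) and 3 with the smaller cluster alone (BC1_Mm lower at -1.12, adjusted p = 0.0052, and B1_Mur3 and B1_Mur4 higher). In these fits 56.9% and 43.4% of all rows were called. The calls of B1_Mur3 and B1_Mur4 in both fits rested on few UMIs. B1_Mur3 had 0 and 0 UMIs in the larger and 11 and 14 in the smaller cluster. B1_Mur4 had 2 and 1 in the larger and 13 and 26 in the smaller cluster. The level of BC1_Mm in the larger cluster rested in part on single cells, which were picked out after their values were seen. In mouse 2, a cell of 7188 UMIs held 93 of the 181 UMIs of BC1_Mm, and without it the level was 28.7 CPM. In mouse 1, a cell of 17333 UMIs held 46 of 233, and without it the level was 53.4 CPM. These 2 cells also had 37 and 83 UMIs of early spermatocyte markers, more per UMI than 99.6% of the cells of the cluster in each mouse, and the cell of mouse 1 was called as a doublet.

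The makeup of the SINE UMIs differed between classes. BC1 made up 35.0% and 38.0% of the SINE UMIs in spermatogonium-like cells, 46.4% and 38.4% in early spermatocytes and 44.9% and 42.8% in pachytene or later spermatocytes. It made up 25.6% and 20.1% in the unnamed cluster, 13.0% and 6.90% in round spermatids, and 6.75% and 2.75% in the smaller cluster of elongating or condensing spermatids. In the larger cluster it was 31.8% and 35.6%, and in Leydig-like cells 1.47% and 1.02%. In the larger cluster of mouse 2, 1 cell held 93 of the 181 BC1 UMIs and 131 of the 509 SINE UMIs. In that of mouse 1, 1 cell held 46 of 233 and 88 of 732. These were the cells with early spermatocyte markers described above. B2 rows were more even, between 35.7% and 56.1% in all germ cell groups. In germ cells, B1 rows ranged from 7.78% in the spermatogonium-like cells of mouse 2 to 49.5% in the smaller cluster of elongating or condensing spermatids of the same mouse. They made up 88.2% and 87.8% in Leydig-like cells. The ratio of BC1_Mm to B2_Mm2 was 2.91 and 2.54 in pachytene or later spermatocytes, 0.70 and 0.33 in round spermatids, and 1.85 and 2.21 in the larger cluster of elongating or condensing spermatids.

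Within the B2 family, the level of B2_Mm1t relative to B2_Mm2 was higher in spermatogonia than in early spermatocytes in both mice. The ratio was 1.11 and 0.36 in spermatogonium-like cells, and 0.30 and 0.24 in early spermatocytes. In the 7 spermatogonium-like cells B2_Mm1t had between 9 and 204 UMIs, so that the high value of mouse 1 came from 2 cells with 204 and 178. B2_Mm1a had 9354 and 6279 CPM in these cells against 498 and 438 CPM in early spermatocytes. Of the B1 rows, B1_Mm and B1_Mus2 had means of 496 and 237 CPM in spermatogonium-like cells and of 264 and 180 CPM in early spermatocytes, whereas B1_Mus1 had a mean of 4316 ± 2210 CPM (SD, n = 2) against 515 ± 29.7. In mouse 1, 166 of the 181 UMIs of B1_Mus1 came from 1 spermatogonium-like cell, and in mouse 2, 84 of the 121 came from 1 cell. The classes overlapped for B1_Mus2, but not for B1_Mm or B1_Mus1.

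The spread between cells was read as the ratio of the upper to the lower quartile. By this measure BC1_Mm was wider than B2_Mm2 in pachytene or later spermatocytes and in the unnamed cluster, but not in early spermatocytes. In CPM itself, its quartiles were further apart than those of B2_Mm2 in early spermatocytes, but closer in the unnamed cluster. Counting error was not removed from either measure. In early spermatocytes the quartiles were 1691 and 3392 CPM in mouse 1 and 1375 and 2208 CPM in mouse 2 for BC1_Mm, and 531 and 1500 CPM and 722 and 1377 CPM for B2_Mm2. In pachytene or later spermatocytes, the median was 567 CPM in mouse 1 and 441 CPM in mouse 2. The lower and upper quartiles were 232 and 1363 CPM in mouse 1 and 147 and 1148 CPM in mouse 2. For B2_Mm2 the quartiles were closer, at 211 and 505 CPM in mouse 1 and 220 and 474 CPM in mouse 2. The cells with high BC1 became fewer along spermatogenesis. A level of BC1_Mm above 1000 CPM was reached by 88.5% and 90.1% of early spermatocytes, 31.5% and 29.2% of pachytene or later spermatocytes, 5.8% and 4.7% of the unnamed cluster and 1.1% and 0.4% of round spermatids. In the unnamed cluster, the tenth of the cells with the most BC1_Mm held 58.5% and 69.2% of its UMIs, and for B2_Mm2 that part was 31.2% and 29.9%.

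**Figure D5:**
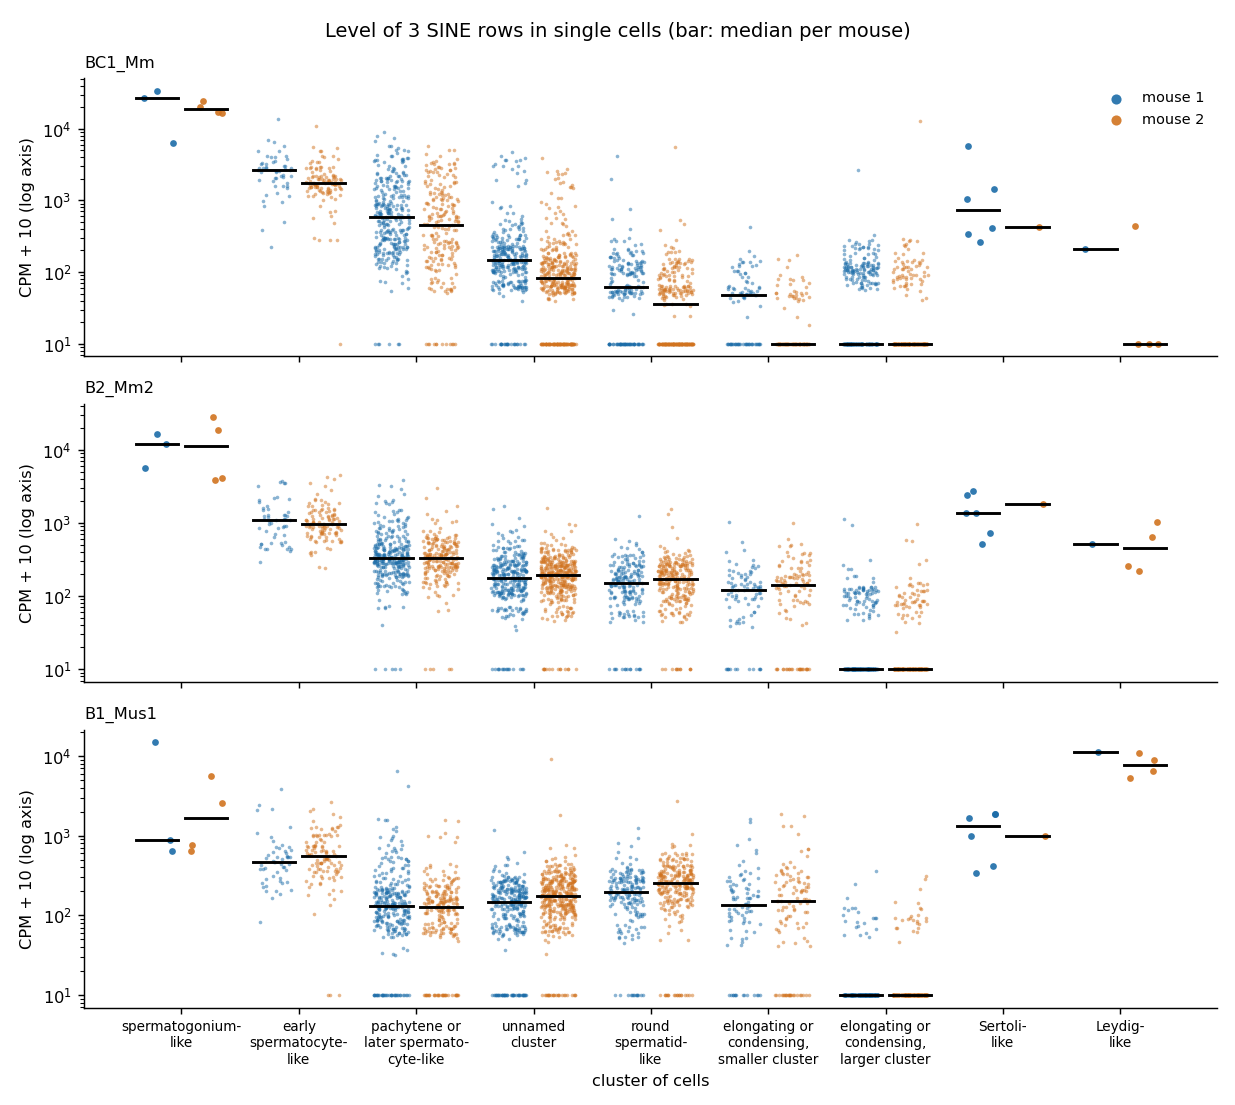
Level of BC1_Mm, B2_Mm2 and B1_Mus1 in single cells (each point a cell, CPM + 10 on a log axis) by cluster and mouse, with the median of each mouse as a bar. In pachytene or later spermatocytes BC1_Mm spreads from 0 to 8942 CPM around medians of 567 and 441 CPM, and a few cells of the unnamed cluster and of round spermatids keep levels above 1000 CPM.

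In pachytene or later spermatocytes, the median of BC1_Mm was higher in the deepest cells than in the shallowest ones. Cells with up to 20000 UMIs had a median of 287 and 230 CPM, and cells with more than 50000 UMIs 1171 and 899 CPM. The sums over these cells differed less, with 979 and 610 CPM against 1284 and 1125 CPM. The corresponding medians of B2_Mm2 were 389 and 276 CPM and 311 and 362 CPM, and those of B1_Mm 141 and 118 CPM and 149 and 154 CPM. The number of UMIs in a cell follows both its RNA content and its capture, which cannot be told apart here.

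A UMI of BC1_Mm was found in 100% and 99.1% of early spermatocytes, 98.1% and 94.5% of pachytene or later spermatocytes, 73.7% and 51.7% of round spermatids, and 49.1% and 29.6% of the larger cluster of elongating or condensing spermatids. After all cells had been thinned to 5000 UMIs the shares were 100% and 99.1%, 84.4% and 75.8%, 27.9% and 17.4%, and 24.0% and 12.8%. No cell was shallower than 5000 UMIs. In Leydig-like cells, with median depths of 9991 and 9652 UMIs, 1 of 1 cell of mouse 1 and 1 of 4 cells of mouse 2 had a UMI, with 2 and 4 UMIs. B2_Mm2 was found in 92.6% and 95.4% of round spermatids, and in 48.4% and 52.5% after thinning.

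Most SINE UMIs of the Leydig-like cells lay on B1_Mus1, unlike in the germ cell classes. Leydig-like cells, identified by markers such as Insl3, had B1_Mus1 at 11310 CPM in mouse 1 (113 UMIs, exact 95% Poisson interval 9321 to 13598, counting error only) and at 7858 CPM in mouse 2 (320 UMIs, 7021 to 8768). Each of the 5 cells held between 50 and 113 UMIs of this row. The next row, B2_Mm2, had 500.5 and 516 CPM, and B1_Mm had 300.3 and 270.1 CPM. Leydig-like cells thus had more B1_Mus1 than the spermatogonium-like cells of the same mouse (5879 and 2753 CPM), but less of BC1_Mm and of each of the 4 B2 rows. Outside this class, the cell of the unnamed cluster of mouse 2 with the most B1_Mus1, 186 UMIs or 9041 CPM, also held 40 UMIs of Leydig markers and 24 of Sertoli markers, and was not called as a doublet. Without that cell the level of B1_Mus1 in its cluster and mouse was 178 CPM in place of 200.2.

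In Sertoli-like cells, which nurse the germ cells and were identified by markers such as Clu, B2_Mm2 had 1723 and 1800 CPM and B1_Mus1 1061 and 982 CPM. BC1_Mm had 2040 and 409 CPM, but 111 of the 148 UMIs of mouse 1 came from 1 of its 6 cells. That cell was the only Sertoli-like cell with UMIs of the spermatogonial genes Rhox13 (5) and Stra8 (4). In the other 6 Sertoli-like cells of both mice BC1_Mm had between 2 and 16 UMIs, or 644 CPM over all 6.

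The 2 mice, which are 1 library each, differed in the same direction for some rows in all 6 clusters with at least 20 cells per mouse. BC1_Mm was lower in mouse 2 in 6 of 6 clusters, with ratios of mouse 2 to mouse 1 between 0.40 and 0.89. B2_Mm1a and B2_Mm1t were also lower in 6 of 6, with ratios of 0.60 to 0.88 and 0.60 to 0.79. B1_Mus1 was lower in 1 of 6, with ratios of 0.92 to 1.41, and B2_Mm2 in 4 of 6, with ratios of 0.74 to 1.14. The animal and the library cannot be told apart, so no test was made of this. The share of all rows lower in mouse 2 in 6 of 6 clusters was not counted. The difference is thus not shown to be particular to these rows.

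The genes whose level was most like that of the SINE rows were sought over 12 sums, of 6 clusters in 2 mice, among 7896 genes with at least 500 UMIs. For BC1_Mm these were Prpf4b, a splicing kinase (Pearson r = 0.995 of log2(CPM + 1)), Ppig, a peptidyl-prolyl isomerase (0.994), Ndufc2 of respiratory complex I (0.992), Ssr2 of the translocon (0.992) and Rps27a, a ribosomal protein (0.991). For B2_Mm2 they were Rnaseh2c, a subunit of ribonuclease H2 (0.995), Clpp, a mitochondrial protease (0.989), Rhpn1 (0.989), Prrc2c (0.988) and Mrps5 of the mitochondrial ribosome (0.988). B2_Mm2 was closer to the other B2 and B1 rows than to BC1_Mm (0.81). Its r was 0.96 to 0.996 for B2, B1, B1_Mm, B1_Mus2, B1_Mur4, B2_Mm1a and B2_Mm1t, but 0.92 for B1_Mur3 and 0.88 for B1_Mus1. BC1_Mm was least like B1_Mus1 (0.48). The 12 points come from 2 libraries and share the same total counts, so these values describe the order of classes only.

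RNA polymerase III and its factors were read beside the SINE rows. The polymerase and TFIIIC transcribe B1, B2 and BC1, while the SNAPC subunits, Brf2 and Gtf3a on the list serve other promoters of the polymerase. These genes had a part in forming the clusters, so their tests are not independent of the classes, and both gene lists below were put together with earlier results of these data known. Of 29 tested genes, 9 rose and 8 fell from early to pachytene or later spermatocytes, where 25.1% of all rows rose and 23.2% fell, with a median of -0.18. These counts were near the background. The 4 largest were falls of the snRNA-activating subunit Snapc1 (-4.14, SE 0.30, adjusted p = 9.5e-10), from 61.0 and 36.3 CPM to 2.11 and 2.15 CPM, and of the polymerase subunits Polr3d (-3.66), Polr3b (-1.96) and the catalytic Polr3a (-1.71), each with an adjusted p of 0.0015 or lower. From pachytene or later spermatocytes to round spermatids, 22 fell and 3 rose, where 37.5% and 37% of all rows did, with a median of -1.59. The falls included Gtf3c5 (-4.83) and Gtf3c4 (-3.64) of the initiation factor TFIIIC, while the subunit Polr3f rose by 4.40 (SE 0.34, adjusted p = 3.1e-10). Gtf3c5 had 160 and 99 UMIs in pachytene or later spermatocytes and only 2 and 2 in round spermatids. From round to elongating or condensing spermatids 5 rose and 9 fell, where 27% and 26.1% of all rows did. Snapc4 (2.63) and Snapc2 (2.21) were among those that rose, and the TATA-binding protein Tbp (-2.58) fell. Both of these rises rested on few UMIs. Snapc4 had 1 and 2 UMIs in round and 8 and 4 in elongating or condensing spermatids, and Snapc2 had 8 and 3 against 14 and 18.

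Proteins known to bind BC1, B1, B2 or Alu-domain RNA were read in the same way. Of 18 tested, 5 rose and 8 fell from early to pachytene or later spermatocytes, where 25.1% and 23.2% of all rows did. Ssb, the La protein that binds the ends of polymerase III transcripts, fell by 3.33 (SE 0.16, adjusted p = 6.4e-12), from 252 and 194 CPM to 17.3 and 18.5 CPM. Nucleolin, Ncl (-3.21), and Hnrnpa2b1 (-2.29) also fell. The editing enzyme Adar had -3.46 (SE 0.91, adjusted p = 0.0036), but rested on 9 UMIs in early and 3 in pachytene or later spermatocytes. From pachytene or later spermatocytes to round spermatids 2 rose and 12 fell, where 37% and 37.5% of all rows did, with the helicase Dhx9 (-3.07), Ilf2 (-3.06) and Ptbp1 (-2.09) falling and the translation factor Eif4b (2.24) rising. In elongating or condensing spermatids 4 rose and 5 fell against round spermatids, where 27% and 26.1% of all rows did, which was near the background. Fxr1, a relative of the fragile X protein, rose by 1.35, and Fxr2 (-1.37), Pura (-1.24) and the signal recognition particle protein Srp14 (-1.19) fell. Other small RNA genes of polymerase III gave almost no UMIs. Of the 8 read, Vaultrc5 had 16 UMIs, Rpph1 had 11, and the other 6, among them Rn7sk, Rmrp, Rny1 and Rny3, had 0. The libraries were primed at poly-A stretches and the genome was repeat-masked, so these counts do not show whether such RNAs were present.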

How the data were processed

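Testis cells of 2 mice were measured by 3-prime single-cell RNA sequencing. The deposited matrix holds UMI counts per row and cell, which the authors made with Cell Ranger 2.0.0 (demultiplexed with bcl2fastq 2.17.1.14, per the methods) on a repeat-masked GRCm38 genome with Ensembl 89 genes and RepBase 17.04 repeats added as further sequences, joined after downsampling to an equal mean of reads per cell. The barcode suffix was taken as the mouse. Cells were clustered without repeat rows (10 principal components, K = 9, seed 42). A cluster was named after the class with the highest marker score, where at least 3 markers of that class reached 1.5 times the CPM of all cells. UMIs were summed per mouse and class, for classes with at least 20 cells per mouse, and tested in 1 fit with edgeR 4.0.16 (TMM, filterByExpr, quasi-likelihood, threshold 0.05) in R 4.3.3, and with DESeq2 1.42.0 as an alternative. Simulated data had the spread of all sums in the fit and 14993 rows. Between pachytene and round spermatid sums, 200 rows were changed 4-fold. The edgeR steps recovered 139 of these with 15 false calls. The false calls were a larger part of all calls than the threshold of 0.05. In the data 74.4% of all rows were called in this step, so the simulation does not test the scaling at such a share. The mice pair the samples, being the same animals in each class. Deviations of same-mouse sums correlated between 0.034 and 0.203. The 2 libraries held 27450497 and 30302332 UMIs. Intervals are exact and cover counting error only. Named SINE rows are those with at least 100 UMIs, with the 5 largest changes per comparison. Also named are, whatever their UMIs, the 4 largest called changes per gene list and the 5 genes most like BC1_Mm and B2_Mm2. The rows and lists were chosen with earlier results of these data known. A gene that this rule names and a related sequence are not reported here.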

Additional observations from a re-analysis of the deposited data

How the results depend on the processing

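The fall of SINE rows from early to pachytene or later spermatocytes counted 10 rows as reported, 5 as UMIs per cell and 6 to 8 with 1 library sum left out, all lower under each of these. The 11 rows called from pachytene or later spermatocytes to round spermatids were 9 to 12 under the alternatives tried. The share of all rows called was 74.4% as reported and 43.2% to 83.3% under these. B1_Mus1 turned to -0.039 as UMIs per cell. From round to elongating or condensing spermatids 4 rows were called, where 53.2% of all rows were. With DESeq2 it was 1 row (47.5% of all rows), and as UMIs per cell 10 rows (72.8%). It was 8 rows with clustering on 2000 variable genes (67.3%) and 9 with the unnamed cluster counted as round spermatids (64.5%). With the larger cluster alone it was 9 rows (56.9%). The 23 genes of both lists called in this step were 35 as UMIs per cell and 15 after thinning. In these 3 fits 53.2%, 72.8% and 50% of all rows were called. In that step several rows changed sign. BC1_Mm was -0.10 without the filter on low counts, -1.33 as UMIs per cell, -1.97 with 2000 variable genes, -0.079 without doublets, -1.14 with the unnamed cluster added, -1.12 with the smaller cluster alone and -0.47 to 0.47 with 1 sum left out (-0.37 without round spermatids of mouse 2, -0.47 without elongating or condensing spermatids of mouse 1). B1_Mur4 was -0.082 without the filter, -1.28 as UMIs per cell, -0.20 with 2000 variable genes, -0.043 with the unnamed cluster added, -2.65 with the larger cluster alone and -0.45 to 0.17 with 1 sum left out (-0.12 without round spermatids of mouse 1, -0.45 without elongating or condensing spermatids of mouse 2). B1_Mur3 was -0.37 as UMIs per cell and -6.55 with the larger cluster alone. That cluster held 0 UMIs of B1_Mur3 in both mice, against 5 and 16 in round spermatids, so -6.55 is not a measured size. It held 2 and 1 UMIs of B1_Mur4. With the smaller cluster alone, B2_Mm2 was 0.15, B1_Mus1 0.065, B1_Mm 0.020, B2 0.029, B1_Mus2 0.079 and B1 0.13. The log2 ratio of the SINE share, -1.15, -1.56 and -1.24 in the 3 steps, was -0.48, -2.12 and -1.73 as UMIs per cell and -1.55, -1.29 and -2.20 as the median over cells. After thinning it was -1.29 in the step to pachytene and -1.35 in the last step. Without BC1_Mm it was -0.88 in the step to round spermatids and -1.29 in the last step, and with the unnamed cluster added -1.31 and -1.49. In the last step it was also -1.05 without protamine and transition protein genes, -2.19 with the larger cluster and -0.52 with the smaller cluster. After thinning, the mean share of cells with a BC1_Mm UMI was 80.1% in pachytene or later spermatocytes (96.3% before), 46.0% in the unnamed cluster (84.4%), 22.6% in round spermatids (62.7%) and 17.1% in elongating or condensing spermatids (41.2%). That of B2_Mm2 was 98.6% in early spermatocytes (100%), 80.4% in pachytene or later spermatocytes (98.0%), 59.1% in the unnamed cluster (95.6%), 50.5% in round spermatids (94.0%) and 21.4% in elongating or condensing spermatids (43.5%). The cause of these differences was not tested. With the mouse as a replicate block, the SINE rows called in the 3 steps were 10, 11 and 5, where 52.3%, 77.6% and 57.2% of all rows were. B1_Mur4 was gained and B3 lost in the step to pachytene, and B2_Mm2 was gained in the last step. The higher level of BC1_Mm in spermatogonium-like cells stayed past the threshold under each alternative, at 1.78 to 2.73. Clustering on 2000 variable genes gave no pachytene class, so the first 2 steps have no value there. The 2 mice give 2 sums per class, so p-values rest on a spread estimated jointly from the sums of all classes in the fit. They do not measure the spread between cells. No rows with few UMIs could be followed in the classes of 7 or fewer cells.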
